A study of Mus musculus with 2 samples.

Results

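The 9 genes described here are 5 chemokines of the CXC family and the 4 receptors that read them: Cxcl9 and Cxcl10 with Cxcr3, Cxcl16 with Cxcr6, Cxcl12 with Cxcr4, and Cxcl2 with Cxcr2. They were chosen by symbol from the 31053 genes of the count tables, and all 9 were found there. Chemokines are small secreted proteins that guide leukocytes along a gradient, and their receptors are G protein-coupled receptors on the cells that move. Cxcl9 and Cxcl10 are induced by interferons and attract activated T cells and NK cells that carry Cxcr3. Cxcl16 is made as a membrane-bound protein that can be shed, and its receptor Cxcr6 is carried by T cell and innate lymphocyte subsets. Cxcl12 is made steadily by stromal and vascular cells and holds or attracts cells with Cxcr4, and Cxcl2 is made by inflamed myeloid cells and attracts neutrophils through Cxcr2.

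Single-cell RNA was measured in 2 libraries of mouse retina, taken 2 weeks after optic nerve injury. One came from C57BL/6 mice treated with MSC-sEV, as the labels name the agent, and the other from C57BL/6 mice treated with PBS. All mice were 6 to 8 weeks old per the labels, all had the injury, and each library was the pooled retina of 6 mice enriched for CD45+ leukocytes on magnetic beads. The comparison asks which cells of the injured retina made these chemokines and which could sense them, with and without MSC-sEV. Each treatment was 1 pool, so no difference below has a replicate check and no p-value was computed. Intervals in parentheses are exact 95% intervals for the counting of molecules alone, and neither mouse-to-mouse nor cell-to-cell variation enters them.

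After filtering, the MSC-sEV library held 2323 cells with a median of 2920 UMIs and the PBS library 1347 cells with a median of 2601 UMIs. A UMI marks 1 captured RNA molecule. The MSC-sEV and PBS libraries shared 0 barcodes. Clusters of leukocytes made up 889 MSC-sEV cells (38.3%) but 106 PBS cells (7.87%), and in PBS all 106 were microglia-like, so most barcodes of both libraries lay outside the leukocyte clusters although the labels call the cells immune cells of the retina. Rod-like cells, the photoreceptors of dim light, were the largest class with 1220 cells in MSC-sEV and 759 in PBS. Clusters 7 and 9, with 0 PBS cells, could not be named from their markers and are called by number: cluster 9 (128 cells, led by Chil3, Ccl8, Gpnmb and Spp1, with 9 classical monocyte and 9 monocyte-derived macrophage markers) and cluster 7 (169 cells, led by Retnlg and Ccr3, with a median of only 1342 UMIs). Cluster 7 split into subclusters that included an eosinophil-like one of 49 cells and a neutrophil-like one of 34 cells. A further unnamed cluster, number 5, had 21 MSC-sEV cells and 206 PBS cells (15.3% of PBS) at a median of 669 UMIs in PBS. The median mitochondrial share was 2.60% in MSC-sEV and 5.07% in PBS. The clusters were made without the 9 genes.

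In the whole libraries, 8 of the 9 genes were at least 2-fold higher in MSC-sEV and Cxcl12 alone was at least 2-fold lower. Of the 14380 genes with at least 20 UMIs, 20.5% were that much higher and 10.7% that much lower. Cxcl9, Cxcr3, Cxcr6, Cxcr4, Cxcl2 and Cxcr2 had 20 UMIs only through MSC-sEV, so the count of 8 is a description. The ratios compare CPM, the UMIs of a gene per 1000000 UMIs of a library or class. Since the share of leukocytes also differed between the libraries, a ratio over whole libraries does not separate more cells of a type from more RNA per cell, and levels within a class are given below. Reads of a gene and of an overlapping gene on the other strand cannot be told apart where strand was not used in counting, which the sources used here do not give. This concerns Cxcl10 (Art3), Cxcl16 (Zmynd15) and Cxcr6 (Fyco1).

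**Figure D1:**
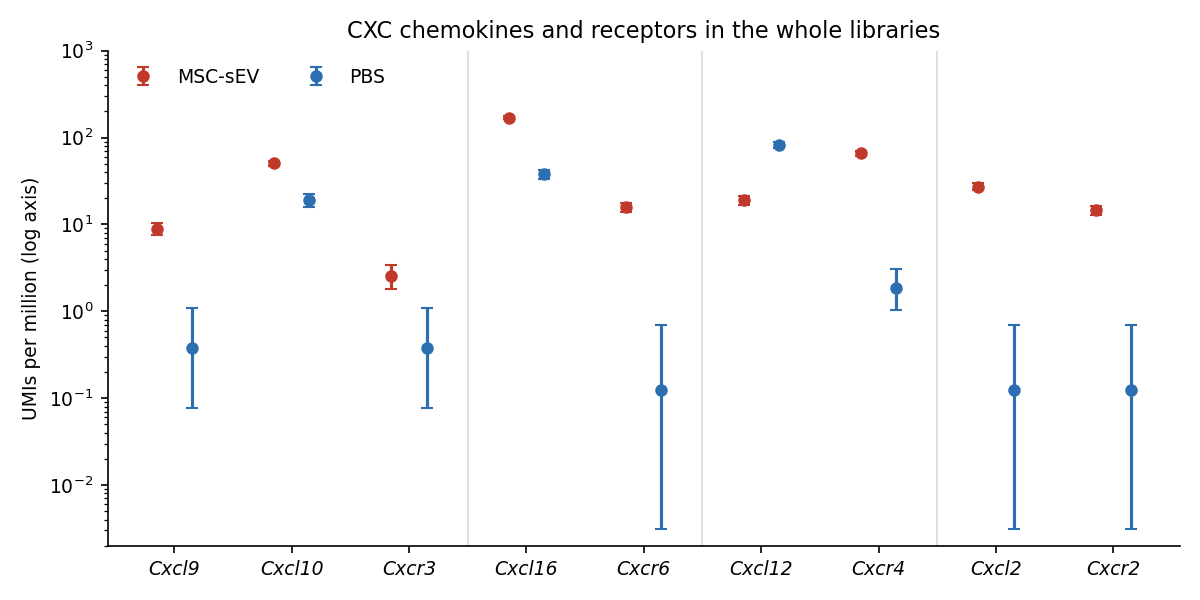
Level of each gene in CPM on a log axis in the whole MSC-sEV library (red, left of each pair) and the whole PBS library (blue), with exact Poisson 95% intervals. Cxcl12 is the only gene with a higher level in PBS (19.0 CPM in MSC-sEV against 81.7 CPM in PBS), and Cxcr6, Cxcl2 and Cxcr2 rest on 1 PBS UMI each.

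Cxcl9 and Cxcl10 lie next to each other on mouse chromosome 5 of mm10, at chr5:92321347-92328079 and chr5:92346638-92348889, both on the minus strand and 18558 bases apart. Cxcl2 lies on the plus strand of the same chromosome, at chr5:90903871-90905938. The 250 bases before the RefSeq start of these 3 genes are shown because their ligands are the induced ones of the set and because their cells differed from each other. They come from RefSeq for GRCm38.p6, the assembly of mm10. The regions are chr5:92328080-92328329 on the minus strand for Cxcl9, chr5:92348890-92349139 on the minus strand for Cxcl10 and chr5:90903649-90903898 on the plus strand for Cxcl2. Capitals mark matches to the interferon-stimulated response element (ISRE) or to the NF-kB motif, and overlapping matches run together.
Cxcl9: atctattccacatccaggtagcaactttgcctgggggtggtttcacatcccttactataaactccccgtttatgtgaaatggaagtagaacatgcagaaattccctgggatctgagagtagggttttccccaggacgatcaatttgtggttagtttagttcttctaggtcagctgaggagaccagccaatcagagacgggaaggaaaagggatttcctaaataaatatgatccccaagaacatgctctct
Cxcl10: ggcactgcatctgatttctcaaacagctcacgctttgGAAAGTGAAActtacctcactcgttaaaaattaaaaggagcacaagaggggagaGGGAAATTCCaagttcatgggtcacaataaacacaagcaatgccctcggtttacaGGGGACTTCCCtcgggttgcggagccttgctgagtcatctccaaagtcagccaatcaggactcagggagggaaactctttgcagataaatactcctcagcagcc
Cxcl2: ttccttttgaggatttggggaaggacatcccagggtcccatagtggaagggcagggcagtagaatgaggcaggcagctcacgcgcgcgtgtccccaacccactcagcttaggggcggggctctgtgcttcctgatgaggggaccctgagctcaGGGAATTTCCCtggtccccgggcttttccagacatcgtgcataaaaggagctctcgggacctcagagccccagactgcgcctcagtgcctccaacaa
Both strands were searched. Cxcl10 held 1 ISRE match, which began 213 bases before the start, and 3 NF-kB matches, of which 2 overlap. Cxcl2 held 2 overlapping NF-kB matches. The window of Cxcl9 held neither motif nor the GAS motif (TTCNNNGAA), which says only that those letters are not in it. Of 27025 RefSeq promoter windows of 300 bases, 3.49% held the ISRE letters, 8.18% the NF-kB motif and 8.47% the GAS letters. A match is a description of the letters and not a binding site. Promoter windows were found for 8 of the 9 genes, and those of Cxcl12, Cxcr2, Cxcr3, Cxcr4 and Cxcr6 held none of the 3 motifs.

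Cxcl9, the interferon-gamma-induced ligand of Cxcr3, had 148 UMIs in 33 cells of the MSC-sEV library and 3 UMIs in 3 cells of the PBS library. The ratio was 23.9 (8.03 to 117), with 8.93 CPM in MSC-sEV against 0.373 CPM in PBS. Of the MSC-sEV signal, microglia-like cells held 91 of the 148 UMIs (61.5%), cluster 9 held 24, migratory dendritic cell-like cells 18 and type 2 conventional dendritic cell-like cells 10. No leukocyte of PBS held a UMI. Within microglia-like cells the counts were 91 UMIs in 13 of 414 MSC-sEV cells and 0 UMIs in 106 PBS cells, which allows up to 2.83% of PBS cells with a UMI (3 counts of 106), not a limit on cells that express the gene. The level in MSC-sEV was 20.6 CPM, at least 4.51-fold higher than in PBS when the PBS count of 0 is set to a floor of 3 counts over the class. This bound was under 2-fold under 3 alternatives: 1.03 after thinning to 1000 UMIs, 1.27 (13 UMIs) with cells named by a marker score, where type 2 dendritic cell-like cells held most Cxcl9, and 1.46 (32 UMIs) at a clustering resolution of 2.0. With all deposited barcodes, 49 UMIs were in microglia-like cells and the bound was 2.72.

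The Cxcl9 signal came from few cells. The 5 cells with most UMIs held 58.1% of it, and 3 of these 5 lay in cluster 6, a microglia-like cluster of 182 cells that had 0 PBS cells. All 3 of these microglia-like cells had 0 UMIs of P2ry12, a receptor of resting microglia. They held 29, 17 and 11 Cxcl9 UMIs and 14, 5 and 4 UMIs of Ptprc, the gene of CD45. Cluster 6 as a whole held 74 Cxcl9 UMIs in 9 cells. It was named from 10 microglia markers and also met 4 of type 1 conventional dendritic cells. At resolution 2.0 a cluster of 65 MSC-sEV cells was named plasmacytoid dendritic cell-like, from 6 markers against 5 of microglia. Whether it held the Cxcl9 UMIs that left the microglia-like class there was not examined, so the type of these Cxcl9 cells stays uncertain. Cluster 4, the microglia-like cluster with most cells shared by the libraries, held 9 Cxcl9 UMIs in 2 of 181 MSC-sEV cells and 0 in 66 PBS cells, too few to give a direction. By level, migratory dendritic cell-like cells came first at 31.8 CPM (18.8 to 50.3), but 17 of their 18 UMIs were in 1 cell, and their interval overlapped that of microglia-like cells (16.6 to 25.3).

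Cxcl10, the second interferon-induced ligand of Cxcr3, had 841 UMIs in 63 MSC-sEV cells and 152 UMIs in 13 PBS cells, a ratio of 2.68 (2.26 to 3.21). Of the 152 PBS UMIs, 134 were in 1 Müller glia-like cell of 22517 UMIs. That cell also held 40 UMIs of Rlbp1, the retinaldehyde-binding protein of Müller glia, 73 UMIs of the interferon-induced Isg15 and 0 UMIs of Ptprc. Without the top cell of each library the counts were 705 UMIs in MSC-sEV and 18 in PBS and the ratio 19.0 (11.9 to 32.3), so 1 PBS cell set the ratio over all cells.

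The sources of Cxcl10 in MSC-sEV were myeloid. Cluster 9 held 350 UMIs (41.6%), type 2 conventional dendritic cell-like cells 232 (27.6%), microglia-like cells 194 (23.1%) and T cell-like cells 44. The level was 189.6 CPM (166 to 216) in the dendritic cell-like cells, 131 CPM (118 to 145) in cluster 9, 53.4 CPM (38.8 to 71.7) in T cell-like cells and 44.0 CPM (38.0 to 50.6) in microglia-like cells, and only the last 2 intervals overlap. Within cluster 9, 346 of the 350 UMIs were in subcluster 9.1, where 8 of 38 cells held them. It was named classical monocyte-like from 6 markers that include Ly6c2, Ccr2, Plac8, Hp and Ms4a4c. It also met 5 markers of type 2 conventional dendritic cells, and Cd209a, a gene of that list, led its genes. The 2 cell types are thus barely separated in this subcluster. Isg15 and Ifit3, both interferon-induced, were also among the leading genes of subcluster 9.1.

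Most cells of these classes had no Cxcl10 UMI: 5 of 66 dendritic cell-like cells held all 232 UMIs of that class, and 135 were in 1 cell. Of the 63 Cxcl10 cells in MSC-sEV, 37 (58.7%) held an Isg15 UMI, against 16.4% of the cells without Cxcl10, and 9 also held Cxcl9, 14.3% of them. These shares move with the depth of a cell and are given as counts only. In rod-like cells of MSC-sEV, which are not known as a source, 7 of 1220 cells (0.574%) had a Cxcl10 UMI at a median depth of 2460.5 UMIs, and in cluster 9 11 of 128 (8.59%) at a median depth of 18554 UMIs.

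Within microglia-like cells, Cxcl10 had 194 UMIs in 23 of 414 MSC-sEV cells and 1 UMI in 106 PBS cells, a ratio of 28.8 (5.12 to 1145). A single cell of cluster 6 held 79 of them. Without the top cell of each library 115 UMIs remained in MSC-sEV and 0 in PBS, a bound of 5.70. Thinned to 1000 UMIs, 14 were left in MSC-sEV and 0 in PBS, a bound of 1.03. The ratio was 22.1 at resolution 2.0 and 13.5 with a marker score per cell. Of the 194, 169 were in cluster 6 and 6 in cluster 4, against 0 in cluster 4 of PBS. Müller glia-like cells went the other way, with 3 UMIs in 80 MSC-sEV cells and 140 UMIs in 129 PBS cells, a ratio of 0.0263 (0.00536 to 0.0785). Once the top cell of each library was left out, the Müller counts were 2 UMIs in MSC-sEV and 6 in PBS and the interval included 1 (0.0404 to 2.29).

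Cxcr3, the receptor for Cxcl9 and Cxcl10, lies on chromosome X and had 42 UMIs in 23 MSC-sEV cells and 3 UMIs in 3 PBS cells, a ratio of 6.79 (2.17 to 34.3). T cell-like cells, which had 0 cells in PBS, held 26 of the 42 UMIs (61.9%) in 13 of 62 cells (21.0%, 11.7 to 33.2). The dendritic cell-like cells of type 2 followed with 7 UMIs in 4 cells, cluster 9 with 4 and microglia-like cells with 3 in 1 cell. That microglia-like cell, of the dividing cluster 17, had 47801 UMIs, of which 7 were Cd3e, the T cell receptor subunit, and 6 were P2ry12, so it carried genes of both cell types. Among the 1220 rod-like cells of MSC-sEV 0 had a Cxcr3 UMI, which allows up to 0.246% of cells with a UMI (3 counts of 1220). All 23 Cxcr3 cells held a Ptprc UMI, and 18 of the 23 held a Cxcr4 UMI. The T cell-like cluster was named from 9 T cell markers and also met 4 of NK cells. Its Cxcr3 and Cxcr6 levels may therefore not be those of T cells alone.

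Most UMIs of the ligands and of the receptor lay in different classes. Cxcl9 and Cxcl10 together were mostly in microglia-like cells, cluster 9 and dendritic cell-like cells, while T cell-like cells held 2 of the 148 Cxcl9 UMIs and 44 of the 841 Cxcl10 UMIs. The PBS library had 3 Cxcr3 UMIs in all, 2 of them in microglia-like cells, and 0 cells in the T cell-like cluster.

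**Figure D2:**
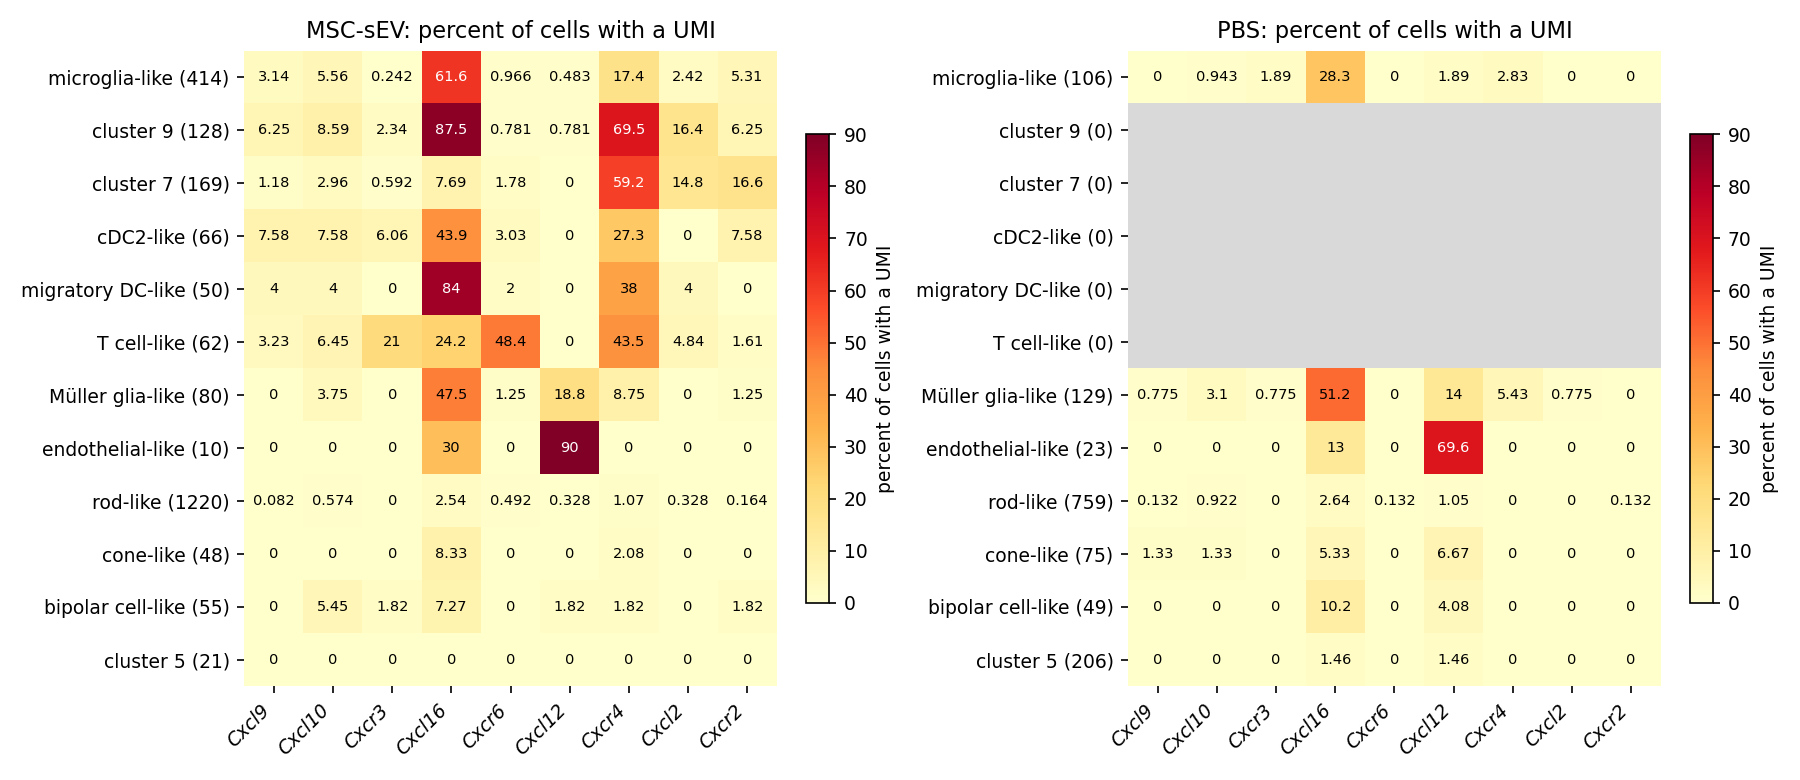
Percent of cells with at least 1 UMI of each gene (columns) in each cell class (rows, number of cells in parentheses) of MSC-sEV (left) and PBS (right), where grey rows have 0 cells. Shares rise with the depth of the cells and were not thinned. Cxcl16 has the widest set of classes, Cxcr6 and Cxcr3 are highest in T cell-like cells (48.4% and 21.0%), Cxcr2 in cluster 7 (16.6%) and Cxcl12 in endothelial cell-like cells (90.0% of 10 MSC-sEV cells and 69.6% of 23 PBS cells).

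Cxcl16, at chr11:70453983-70459984 on the minus strand, was the most widely detected of the 9 genes. It had 2799 UMIs in 546 MSC-sEV cells (23.5%, 21.8 to 25.3) and 303 UMIs in 131 PBS cells (9.73%, 8.20 to 11.4), with a ratio of 4.48 (3.98 to 5.06). No single cell held more than 1.57% of the MSC-sEV UMIs or 4.29% of the PBS UMIs. In MSC-sEV microglia-like cells held 39.6% of the UMIs, cluster 9 held 35.8%, migratory dendritic cell-like cells 11.2% and Müller glia-like cells 5.18%. In PBS the order was different, with 175 UMIs (57.8%) in Müller glia-like cells and 78 (25.7%) in microglia-like cells.

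By level in MSC-sEV, migratory dendritic cell-like cells came first at 555 CPM (495 to 620), then cluster 9 at 375 CPM (352 to 399), microglia-like cells at 251 CPM (237 to 267) and Müller glia-like cells at 116 CPM (97.9 to 137). The first 4 intervals do not overlap, while that of Müller glia-like cells overlaps that of T cell-like cells at 91.0 CPM (71.6 to 114). With each cell thinned to 1000 UMIs, 48.9% of 47 migratory dendritic cell-like cells, 35.9% of 128 cluster 9 cells and 21.8% of 367 microglia-like cells held a UMI, against 0.984% of 1016 rod-like cells. Within cluster 9 the microglia-like subcluster 9.2 had 567 CPM (511 to 628) with 26 of 26 cells positive, an interval that overlaps that of the migratory dendritic cell-like cells. The unthinned class shares were 84.0%, 87.5%, 61.6% and 2.54%, so the order of the first 2 turned when depth was made equal.

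Microglia-like cells held 1109 UMIs in 255 of 414 MSC-sEV cells and 78 UMIs in 30 of 106 PBS cells, with levels of 251 CPM in MSC-sEV and 119 CPM in PBS and a ratio of 2.11 (1.68 to 2.70). Different clusters hold most of the class in the libraries: cluster 6 (182 MSC-sEV and 0 PBS cells), the dividing cluster 17 (47 MSC-sEV and 0 PBS cells) and cluster 18 (4 MSC-sEV and 40 PBS cells). In cluster 4 alone Cxcl16 had 163 UMIs (269 CPM) in 181 MSC-sEV cells and 10 UMIs (65.6 CPM) in 66 PBS cells, a ratio of 4.10 (2.17 to 8.71). In cluster 6 the 182 MSC-sEV cells had 257 CPM, and in cluster 18 the 40 PBS cells had 135 CPM.

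Müller glia-like cells differed by less than their counting interval, with 145 UMIs in 80 MSC-sEV cells and 175 UMIs in 129 PBS cells. Their levels were 116 CPM in MSC-sEV and 114 CPM in PBS and the ratio 1.02 (0.811 to 1.28). Cluster 15, with 91.3% of 23 MSC-sEV and 86.8% of 38 PBS cells positive, had 196 CPM in MSC-sEV and 178 CPM in PBS, and cluster 8 had 72.8 CPM in MSC-sEV and 77.6 CPM in PBS. Rod-like cells had 31 UMIs (8.41 CPM) in MSC-sEV and 33 UMIs (9.76 CPM) in PBS, a ratio of 0.861 (0.510 to 1.45). Cxcl16 was thus higher in MSC-sEV in the microglia-like class, while the intervals of the glial and rod-like ratios included 1. The difference between classes was not tested.

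Cxcr6, the receptor of Cxcl16, at chr9:123806475-123811760 on the plus strand, had 261 UMIs in 48 MSC-sEV cells and 1 UMI in the whole PBS library. The ratio was 127 (22.5 to 5021), a range that shows how little 1 count fixes. T cell-like cells held 237 of the 261 UMIs (90.8%) at 288 CPM (252 to 327), and 30 of the 62 cells had a UMI (48.4%, 35.5 to 61.4). After thinning to 1000 UMIs the share was 26.7% of 60 T cell-like cells, against 0.197% of 1016 rod-like cells. Microglia-like cells and rod-like cells had 6 UMIs each. The 2 highest T cell-like cells held 41 and 39 Cxcr6 UMIs, with 37 and 12 of Cd3e.

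Of the 30 Cxcr6 cells in the T cell-like cluster, 23 held Cd3e and 13 held Il1rl1, the IL-33 receptor of type 2 lymphocytes, against 14 and 7 of the other 32. Of the 30, 9 also held Cxcr3, and 16 held Cxcr4. Such counts move with the depth of a cell, and whether they exceed what depth alone gives was not tested. Over 27 groups of a cluster in 1 library with at least 30 cells, the genes whose level followed Cxcr6 most closely were Sh2d2a, a T cell adaptor, Gata3, the factor of type 2 lymphocytes, and Cd226, an activating receptor (Pearson r of log2(CPM + 10) was 0.97 for each). All 3 were highest in the same T cell-like cluster, so 1 group sets these values.

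Cxcl12, at chr6:117168535-117181367 on the plus strand, was the exception. It had 314 UMIs in 32 MSC-sEV cells and 657 UMIs in 54 PBS cells, with levels of 19.0 CPM in MSC-sEV and 81.7 CPM in PBS and a ratio of 0.232 (0.202 to 0.266). Most of it was in cells of the vessel wall in both libraries. Endothelial cell-like cells, named from Cldn5, Pecam1, Cdh5 and 5 other markers, held 214 UMIs (68.2%) in 10 MSC-sEV cells and 606 UMIs (92.2%) in 23 PBS cells. Leukocytes held 3 UMIs in MSC-sEV and 2 in PBS.

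Within endothelial cell-like cells the level was 1765 CPM in MSC-sEV and 3369 CPM in PBS, a ratio of 0.524 (0.446 to 0.613). This did not reach the 2-fold mark, which 9.25% of 2777 genes in this class passed upward and 11.5% downward. A UMI was found in 9 of 10 MSC-sEV cells and 16 of 23 PBS cells, and after thinning to 1000 UMIs in 5 of 10 MSC-sEV cells and 10 of 20 PBS cells. Cells of 1 class differed widely: the 3 highest endothelial cells of MSC-sEV held 67, 61 and 27 UMIs, and the 5 PBS cells with most Cxcl12 held 167, 155, 96, 70 and 45. With the Cxcl12 UMIs of the top cell of each library left out, the ratio was 0.497 (0.409 to 0.600), which is past the 2-fold mark. The other UMIs of these top cells stayed in the totals. Rod markers summed to 544 CPM in the MSC-sEV endothelial cells and 18797 CPM in the PBS ones, and 8 pericyte or smooth muscle markers to 66.0 CPM in MSC-sEV (with Pdgfrb, Acta2, Myl9, Tagln and Cspg4 at 0) and 689 CPM in PBS (none at 0). Their part in the difference was not tested.

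In Müller glia-like cells Cxcl12 ran the other way, with 92 UMIs in 15 of 80 MSC-sEV cells and 29 UMIs in 18 of 129 PBS cells. The levels were 73.6 CPM in MSC-sEV and 18.9 CPM in PBS, a ratio of 3.90 (2.54 to 6.14). Of the 92 UMIs, 36 and 29 were in 2 cells of cluster 8. The cell with 36 held 0 UMIs of Rlbp1, Cldn5 and Ptprc among 26307 UMIs, so it lacked the defining gene of Müller glia. Without the top cell of each library the counts were 56 UMIs in MSC-sEV and 23 in PBS and the ratio 2.99 (1.81 to 5.09). In cluster 15, which is led by Müller genes, 8 UMIs in MSC-sEV gave 18.2 CPM and 9 UMIs in PBS gave 16.2 CPM.

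**Figure D3:**
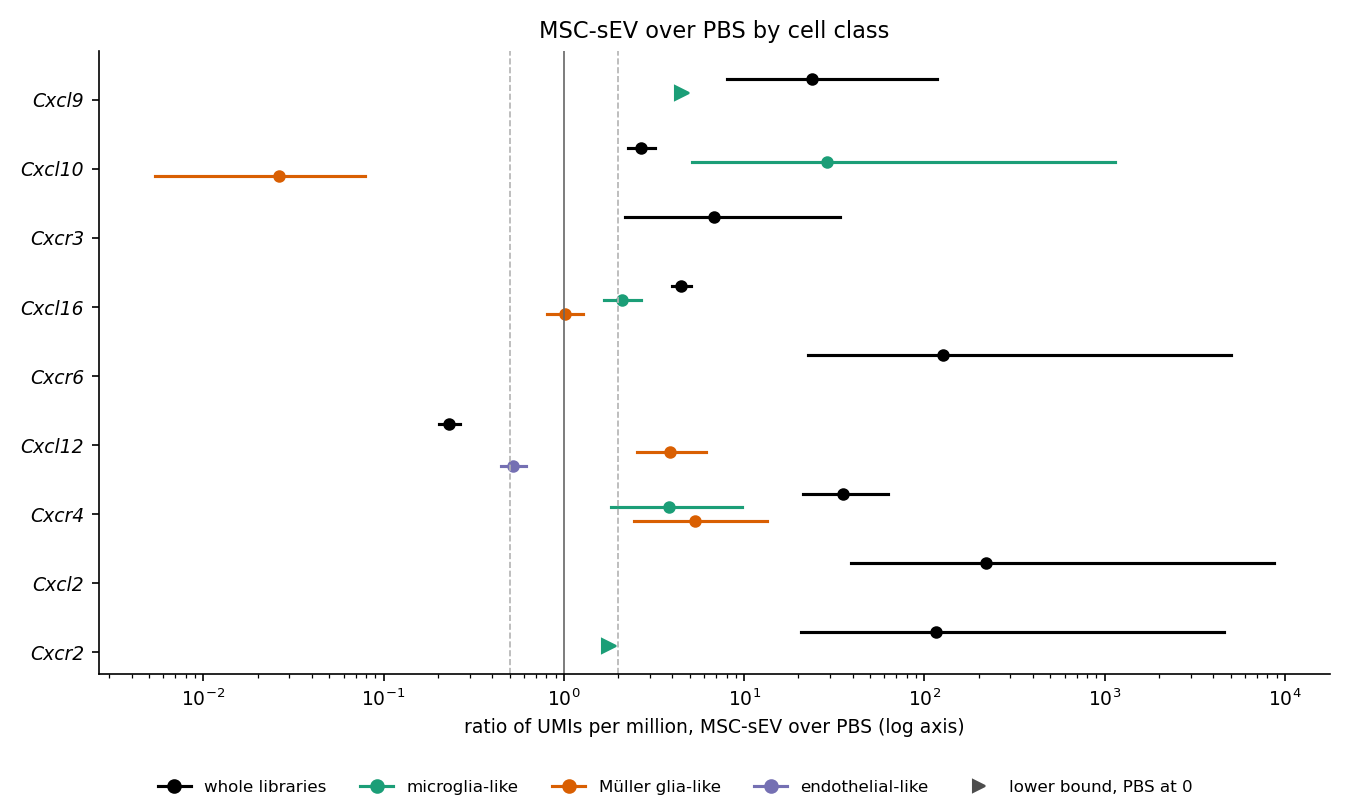
Ratio of CPM, MSC-sEV over PBS, on a log axis for genes with at least 20 UMIs in the comparison, over whole libraries (black), microglia-like (green), Müller glia-like (orange) and endothelial cell-like cells (purple). Lines are exact 95% intervals for counting error, triangles are lower bounds where PBS had 0 UMIs, the solid line is 1 and the dashed lines 2-fold. Cxcl10 lies on opposite sides of 1 in microglia-like (28.8) and Müller glia-like cells (0.0263), and Cxcl12 in Müller glia-like (3.90) and endothelial cell-like cells (0.524).

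Cxcr4, the receptor of Cxcl12, at chr1:128588199-128592293 on the minus strand, had 1088 UMIs in 347 MSC-sEV cells (14.9%, 13.5 to 16.5) and 15 UMIs in 10 PBS cells (0.742%, 0.357 to 1.36). The ratio was 35.2 (21.2 to 63.1), with levels of 65.7 CPM in MSC-sEV and 1.87 CPM in PBS. All leukocyte classes of MSC-sEV held it. Cluster 9 had 384 UMIs (35.3%), cluster 7 had 264 (24.3%), microglia-like cells 181 (16.6%), T cell-like cells 112 (10.3%) and migratory dendritic cell-like cells 56. The top cell held 2.67% of the UMIs.

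By level cluster 7 stood apart at 783 CPM (691 to 883), with 100 of its 169 cells positive (59.2%). Cluster 9 at 144 CPM (130 to 159) and T cell-like cells at 136 CPM (112 to 164) had overlapping intervals. Thinned to 1000 UMIs, 47.9% of 119 cluster 7 cells held a UMI, against 11.7% of 128 cluster 9 cells, although the unthinned share was higher in cluster 9 (69.5%). In cluster 7 the eosinophil-like subcluster 7.1, with the eosinophil genes Ccr3, Siglecf, Prg2 and Alox15, had the highest level at 1571 CPM and 36 of 49 cells positive. The neutrophil-like subcluster 7.3 had 672 CPM and 25 of 34 cells positive. Rod-like cells of MSC-sEV had 14 UMIs in 13 cells (1.07%) at a median depth of 2460.5 UMIs.

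Microglia-like cells had 181 Cxcr4 UMIs in 72 of 414 MSC-sEV cells and 7 UMIs in 3 of 106 PBS cells, a ratio of 3.84 (1.83 to 9.70). Without the top cell of each library there were 173 UMIs in MSC-sEV and 3 in PBS and the ratio 8.57 (2.89 to 42.0). At resolution 2.0 there were 104 UMIs in MSC-sEV and 7 in PBS, a ratio of 2.03. Thinned to 1000 UMIs there were 16 in MSC-sEV and 1 in PBS, a ratio of 3.53. Both of these intervals included 1. With a marker score per cell 43 UMIs in MSC-sEV and 2 in PBS gave a ratio of 6.30. Of the 181, 134 were in cluster 6 and 41 in the dividing cluster 17, both without PBS cells. Cluster 4 held 6 UMIs in MSC-sEV and 1 in PBS, a ratio of 1.51 (0.183 to 69.4). Müller glia-like cells had 35 UMIs in MSC-sEV and 8 in PBS (ratio 5.37, 2.45 to 13.4), but 29 of the 35 were in 1 cell. That cell held 39 Rlbp1, 10 Ptprc and 8 P2ry12 UMIs among 46487, so genes of glia and of microglia. Leaving out the top cell of each library gave 6 UMIs in MSC-sEV and 6 in PBS (ratio 1.23, 0.328 to 4.59).

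Cxcl2, the neutrophil-attracting ligand of Cxcr2, had 452 UMIs in 65 MSC-sEV cells and 1 UMI in PBS, a ratio of 219 (39.2 to 8681). Cluster 7 held 237 UMIs (52.4%), cluster 9 held 185 (40.9%) and microglia-like cells 11. Within cluster 7, the neutrophil-like subcluster 7.3 held 212 UMIs in 11 of 34 cells, at 1548 CPM. A single cell of 3856 UMIs held 139 of them, together with 122 UMIs of S100a9, an abundant neutrophil protein. With that cell and its PBS counterpart left out 313 UMIs remained in MSC-sEV and 0 in PBS, and cluster 9 then led. In cluster 9 the macrophage-like subcluster 9.3 held 83 UMIs in 6 of 26 cells, 50 of them in 1 cell.

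Cxcr2, at chr1:74153989-74161246 on the plus strand, had 240 UMIs in 68 MSC-sEV cells and 1 UMI in PBS, a ratio of 116 (20.7 to 4618). Cluster 7 held 163 (67.9%) at 483 CPM (412 to 564), and the next class, type 2 dendritic cell-like cells, had 13.1 CPM (7.47 to 21.2). In the neutrophil-like subcluster 7.3 there were 144 UMIs in 15 of 34 cells (44.1%, 27.2 to 62.1) at 1051 CPM, while the eosinophil-like 7.1 had 6 UMIs in 4 of 49 cells. Of the 15 Cxcr2 cells in 7.3, 12 held S100a8 and 13 held Csf3r, the G-CSF receptor of neutrophils, against 1 and 3 of the other 19. Most cells of 7.3 thus had no S100a8 UMI, and at resolution 2.0 the neutrophil-like cluster had 14 cells. The Cxcr4, Cxcl2 and Cxcr2 levels over 7.3 may therefore not be those of neutrophils alone. Microglia-like cells held 36 UMIs in MSC-sEV, 29 of them in 19 cells of cluster 6, and 0 in PBS. The ratio is at least 1.78 with the floor of 3 counts, and at least 5.35 with a floor of 1. With all deposited barcodes 21 UMIs were in microglia-like cells and the bound was 1.17. Without the top cell of each library it was 1.49. With all barcodes, an unnamed cluster of 44 MSC-sEV cells met 9 microglia markers but was led by Retnlg, as cluster 7 was. Whether it held Cxcr2 UMIs that left the class was not examined, so the type of these Cxcr2 cells stays uncertain.

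Cxcl2 and its receptor were found in part in the same cells. Of the 11 Cxcl2 cells in subcluster 7.3, 7 also held Cxcr2, against 8 of the 23 cells without Cxcl2, and in cluster 9 none of the 21 Cxcl2 cells held Cxcr2. Over the whole MSC-sEV library 12 of 65 Cxcl2 cells held Cxcr2, and 47 of 68 Cxcr2 cells held Cxcr4. The 34 cells of subcluster 7.3 had a median of 3112.5 UMIs, so an absent UMI does not show that a cell lacked the gene. Whether this overlap exceeds what depth alone gives was not tested.

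**Figure D4:**
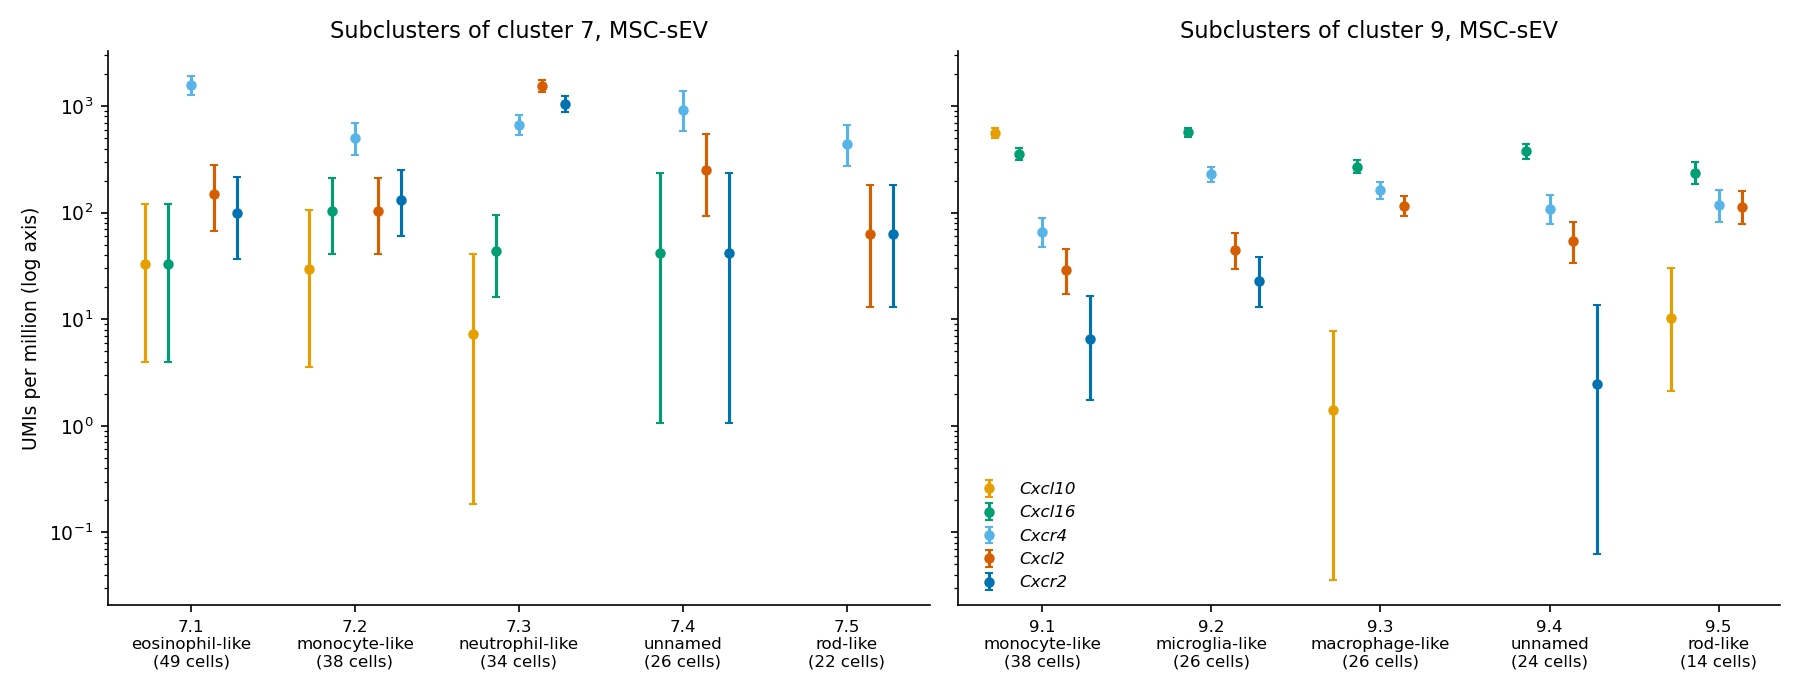
Level of 5 of the genes in CPM on a log axis in the subclusters of cluster 7 (left) and cluster 9 (right) of MSC-sEV, with exact Poisson 95% intervals; genes with 0 UMIs in a subcluster are not drawn. Cxcl2 and Cxcr2 are highest in the neutrophil-like 7.3 (1548 and 1051 CPM), Cxcr4 in the eosinophil-like 7.1 (1571 CPM) and Cxcl10 in the classical monocyte-like 9.1 (560.5 CPM).

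Read across the genes, 2 patterns of spread were seen. Cxcl16 and Cxcr4 were spread over 546 and 347 cells of MSC-sEV, and it took 88 and 66 MSC-sEV cells to hold 50% of their UMIs. For the other 7 genes 3 to 8 cells did. The 5 highest cells held 70.1% of Cxcl12, 61.4% of Cxcl10, 58.1% of Cxcl9 and 55.3% of Cxcl2 UMIs in MSC-sEV. In PBS, the 5 highest cells held 81.1% of Cxcl12, 94.7% of Cxcl10 and 14.2% of Cxcl16.

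**Figure D5:**
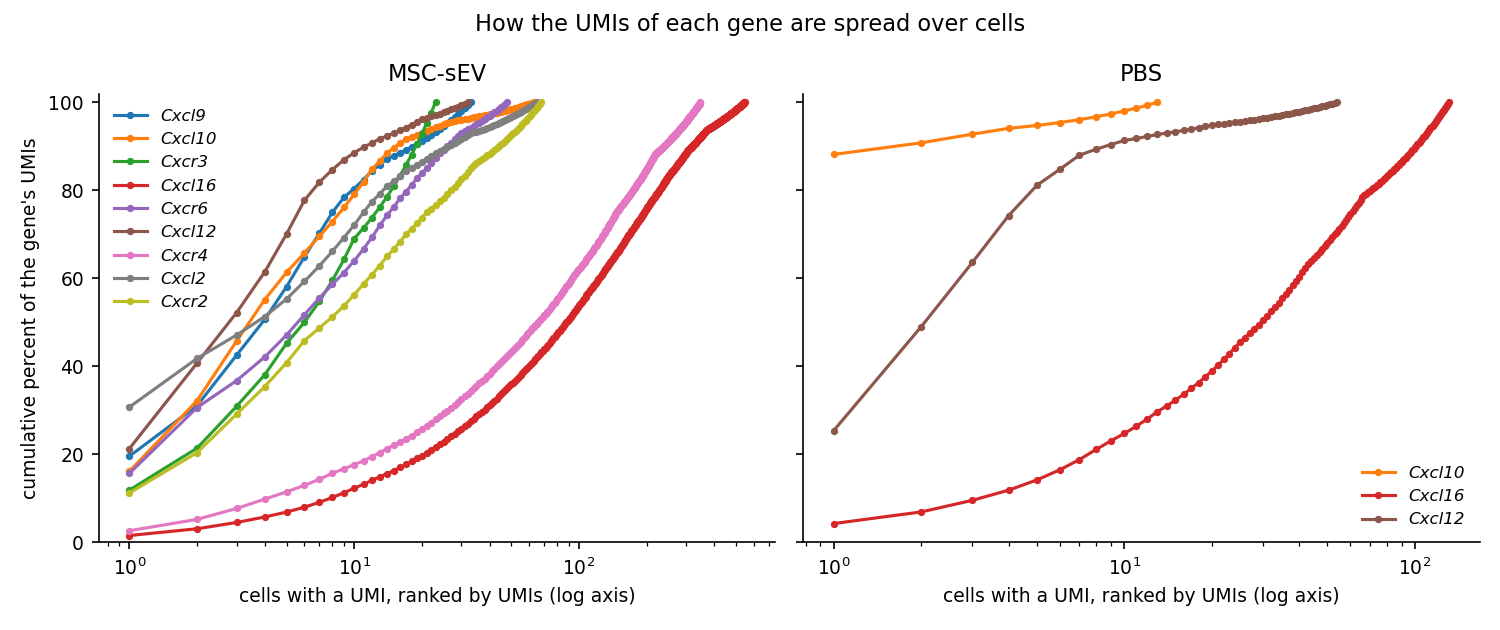
Cumulative percent of a gene's UMIs (vertical axis) against its cells ranked by UMIs (log axis) in MSC-sEV (left) and PBS (right), for genes with at least 20 UMIs in the library. Cxcl16 and Cxcr4 need 88 and 66 cells of MSC-sEV to reach 50%, and 1 cell of PBS holds 88.2% of its Cxcl10.

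In microglia-like cells, 5 of the 9 genes had at least 20 UMIs over both libraries, and 4 of these (Cxcl9, Cxcl10, Cxcl16 and Cxcr4) were at least 2-fold higher in MSC-sEV. Of 10458 genes with as many UMIs in this class, 12.5% were that much higher and 7.35% that much lower. Cxcl9, Cxcl10, Cxcr4 and Cxcr2 had enough UMIs only through MSC-sEV, where the class also held more cells, so the count describes the members and supports no direction. The count of 4 was 2 after thinning to 1000 UMIs, and 2 at a clustering resolution of 2.0 or with cells named 1 by 1 from a marker score, where the Cxcl16 ratio was 1.88 and 1.80. In Müller glia-like cells 4 genes had at least 20 UMIs, of which Cxcl12 and Cxcr4 were at least 2-fold higher and Cxcl10 at least 2-fold lower, beside 9.18% and 4.63% of 10257 genes. In cluster 4 only Cxcl16 had at least 20 UMIs, and it was higher, as were 19.3% of 5070 genes, while 4.28% were lower. Rod-like cells had enough UMIs of Cxcl16 alone, and 15% of 10379 genes were higher and 5.02% lower there.

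The microglia-like cells of the libraries also differed in the markers of other cells. The 10 microglia markers summed to 8290 CPM in MSC-sEV and 15820 CPM in PBS, with none at 0 in either. The 10 classical monocyte markers summed to 511 CPM in MSC-sEV (Hp at 0) and 21.3 CPM in PBS (6 at 0, among them Ly6c2, Ccr2, Chil3, Vcan and Hp), and the 10 macrophage markers to 5013 CPM in MSC-sEV (none at 0) and 1277 CPM in PBS (Arg1, Retnla, Gpnmb and Clec4d at 0). Rod markers summed to 4583 CPM in MSC-sEV and 11131 CPM in PBS. These differences moved with the 4 genes, and their part in the result was not tested.

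Other genes of the same system were counted by list. Of 10 other CXC chemokines, 9 are in the count tables and 3 had at least 20 UMIs, of which Cxcl13 and Pf4 were at least 2-fold higher in MSC-sEV (20.5% of all genes were) and Cxcl14 (75 UMIs in MSC-sEV and 46 in PBS) was not. Cxcl13, a B cell attractant, had 235 UMIs in MSC-sEV and 3 in PBS (ratio 38.0, 12.8 to 186), with 217 of the 235 in 23 microglia-like cells. It had 20 UMIs only through MSC-sEV, so its call is a description. Pf4, the platelet chemokine also made by macrophages, had 587 UMIs in MSC-sEV and 117 in PBS (ratio 2.43, 1.99 to 2.99), and 541 of the 587 were in cluster 9. Of 6 other CXC and atypical receptors only Ackr1, a chemokine-binding decoy of venules and red cells, had enough UMIs, 237 in MSC-sEV and 193 in PBS (ratio 0.596, 0.491 to 0.724).

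The interferon-gamma axis had 6 of 8 genes at least 2-fold higher in the MSC-sEV library (20.5% of all genes) and none lower, with a median log2 ratio of 2.34 beside 0.04 for all genes tested. Ifng itself had 43 UMIs in MSC-sEV and 0 in PBS, at least 6.95-fold higher. In microglia-like cells 4 of the 7 genes with enough UMIs were at least 2-fold higher (12.5% of all genes) and none lower (median log2 1.39, beside 0.06 for all genes). Ifng over all cells and some of the 4 in microglia-like cells had 20 UMIs only through MSC-sEV, so these counts and medians are descriptions. Irf1, an interferon-induced transcription factor, had 495 UMIs in MSC-sEV and 28 in PBS there (ratio 2.63, 1.80 to 4.00). Ifngr1, the receptor chain, was lower in MSC-sEV by less than 2-fold, at 304 CPM in MSC-sEV and 544 CPM in PBS (ratio 0.558, 0.497 to 0.629).

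Of 6 genes that cut or shed chemokines, 5 were at least 2-fold higher over all MSC-sEV cells, beside 20.5% of all genes (median log2 2.44, beside 0.04). Some of the 5 had 20 UMIs only through MSC-sEV, among them Dpp4 (249 UMIs in MSC-sEV and 7 in PBS) and Mmp9 (174 in MSC-sEV and 1 in PBS). The count and median are therefore a description. In microglia-like cells 0 of 3 were, beside 12.5% of all genes (median log2 0.37, beside 0.06), and Adam10, a sheddase of Cxcl16, had 1111 UMIs in MSC-sEV and 128 in PBS (ratio 1.29, 1.07 to 1.56). Genes of receptor signalling and desensitisation were at least 2-fold higher for 8 of 11 members over all cells, beside 20.5% of all genes (median log2 1.42). In microglia-like cells 0 of the 11 were at least 2-fold higher (12.5% of all genes were), 1 was lower (7.35% of all genes), and this was Rgs10, a regulator of G protein signalling, at 623 CPM in MSC-sEV and 1288 CPM in PBS (ratio 0.484, 0.448 to 0.523), with a list median of -0.12. In Müller glia-like cells 2 of 7 interferon-gamma genes were at least 2-fold higher and none lower (median log2 0.80, beside 0.12 for all genes). There 0 of 2 shedding genes passed the mark, and of 9 signalling genes 1 was higher and 2 lower, beside 9.18% of all genes higher and 4.63% lower.

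The genes whose level most resembled that of a member over the 27 groups of at least 30 cells, by Pearson r of log2(CPM + 10), are given as a description, since the groups share libraries and depth. Cxcl9 was closest to Dnase1l3, an extracellular nuclease of dendritic cells (r = 0.92), and also followed Batf3, a dendritic cell factor (0.87). Cxcl10 was closest to the interferon-induced Ifi44 (0.84) and Ifit2 (0.83). Cxcl16 was closest to Plin3 and Marcks (0.95 each), Cxcl12 to Rgr (0.88), Cxcr4 to Abcg3 (0.94), Cxcl2 to Slfn4 and Hp (0.97 and 0.96) and Cxcr2 to Adgre4 and Rab44 (0.98 each). Both of the last 2 members and their named genes were highest in cluster 7 of MSC-sEV, and Cxcr4 and Abcg3 were too, so that 1 group weighs heavily. For Cxcl12 the 27 groups leave out the endothelial cell-like cells, which were under 30 in each library and held most of its UMIs. Cxcr3 had under 50 UMIs and was not ranked.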

How the data were processed

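Droplet 3′ single-cell libraries (10x Genomics) of retina were sequenced on an Illumina instrument, and the authors counted UMIs per gene and barcode with Cell Ranger 3.0.2, using mm10 and default settings per the labels' protocols. The deposited counts are not normalized. The annotation release behind the counts is not given in the sources used here. The tables held 2593 barcodes and 16987131 UMIs for MSC-sEV, and 1676 barcodes and 8439740 UMIs for PBS. Barcodes with at least 500 UMIs, 300 genes and at most 15% mitochondrial UMIs were kept. Cells were clustered with scanpy 1.11.5 on 2000 variable genes without the 9 genes or the pathway lists, 30 components, 20 neighbours and Leiden resolution 1, with 21 clusters as the outcome. Names were given from at least 3 markers of 1 of 30 lists, and a cluster stayed unnamed where its top 10 genes held more markers of another list or where it was shallow without markers there. Clusters 7 and 9 were clustered again by the same steps, so markers of subclusters are relative to the parent. Scrublet called 6 MSC-sEV and 3 PBS barcodes as doublets (0.258% of MSC-sEV and 0.223% of PBS cells), too few for the caller to have worked, and doublets were kept in the main values.

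Levels are UMIs per 1000000 UMIs of a class and library. Poisson intervals were used for levels, Clopper-Pearson intervals for shares and exact conditional binomial intervals for ratios, all at 95%. A PBS count of 0 was set to 3 counts over the class for a bound. Ratios without the top cell left out its UMIs of the gene but kept all its UMIs in the denominator. Ratios were checked on simulated Poisson counts. All genes with at least 20 UMIs gave the background shares, with 2-fold as the mark. Genes, clusters and lists were named by rules in which the members, markers and lists were chosen with earlier results of these data known. Named genes were the members, the 4 list genes with most UMIs, and the 3 genes most like a member. Ifng and Irf1 fall outside this rule and were chosen after their values were seen. Coordinates came from GENCODE M21 for GRCm38, where all 9 IDs matched.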

Additional observations from a re-analysis of the deposited data

Results flagged for a closer look

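Cxcl10 differed between classes, with a ratio of MSC-sEV over PBS of 28.8 in microglia-like cells and 0.0263 in Müller glia-like cells. The intervals lay on opposite sides of 1, but the difference itself was not tested, and 134 of the 140 PBS Müller UMIs were in 1 cell. Of the 194 MSC-sEV microglia-like UMIs, 79 were in 1 cell, and the bound after thinning to 1000 UMIs was 1.03.

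Cxcl12 had a ratio of 3.90 in Müller glia-like cells and 0.524 in endothelial cell-like cells, again on opposite sides of 1 and not tested. Of the 92 MSC-sEV Müller UMIs, 36 were in 1 cell without Rlbp1, and the endothelial class had 10 MSC-sEV and 23 PBS cells.

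Barcodes left out by the filter held 1 to 9 UMIs of each gene in MSC-sEV and 0 to 5 in PBS.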

How the results depend on the processing

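No paired analysis was possible because each treatment had 1 library. Settings changed the filter, doublets, denominator, weight of cells, depth and floor, and within microglia-like cells the resolution and the naming per cell. Those without the top cells, with cluster 4 only and with thinned rod-like cells were added after the data were seen. Over whole libraries 7 or 8 genes were at least 2-fold higher under all 9 settings, and 69 of 80 single ratios stayed within the main interval, none reversing. In microglia-like cells 47 of 57 did and 10 moved, none reversing. The floor of 1 count could not move a whole-library ratio, since each gene had at least 1 PBS UMI. Its agreement there was fixed in advance and is counted among the 69. The mean of per-cell CPM gave a Cxcr6 ratio of 13.7 over whole libraries, below its main interval. In microglia-like cells 4 genes were at least 2-fold higher in the main setting, 2 with cells thinned to 1000 UMIs, 2 at resolution 2.0, 2 with a marker score per cell and 1 in cluster 4 only. The mean of per-cell CPM gave no count there, since Cxcl9 and Cxcr2 were at 0 in PBS, and lower bounds under 1 gave no ratio. With a marker score per cell the Cxcl9 bound in microglia-like cells was 1.27-fold. The class with most UMIs was the same for at least 6 of 9 genes under every setting that can move it. Classes made anew took the main class of most of their cells, so a move there can be one of name alone. It moved for Cxcl16 to cluster 9 in 5 settings, and for Cxcl2 and Cxcr2 with all barcodes and with the strict filter. At resolution 0.5, 1 of these 5, the microglia-like class still held 1109 Cxcl16 UMIs, as in the main setting. Main cluster 9 held 1003. That move may set a single cluster against part of a class, and does not show that the class lost its lead. The cells of main cluster 9 held only 20 of the 240 Cxcr2 UMIs, against 163 in cluster 7. For Cxcr4 it moved to cluster 7 with the mean of per-cell CPM and when thinned. For Cxcl9 it moved to type 2 dendritic cell-like cells with the marker score. When thinned, Cxcr3 was led by cluster 7 with 1 cell, beside 1 microglia-like cell and 0 of 60 T cell-like cells, too few to name a class. Without the top cell, Cxcl10 was led by type 2 dendritic cell-like cells and Cxcl2 by cluster 9. The highest share of rod-like MSC-sEV cells with a UMI, that of Cxcl16, was 2.54% and 0.984% after thinning. Cxcr6, Cxcl2 and Cxcr2 had 1 UMI each in PBS, which had 0 cells in the T cell-like cluster and in cluster 7, and this limits their ratios.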
